A study of Mus musculus with 4 samples.

Results

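Toll-like receptors bind microbial products, and the 10 genes described here encode 6 of these receptors (Tlr1, Tlr2, Tlr4, Tlr6, Tlr7 and Tlr9), 2 proteins that help Tlr4 see lipopolysaccharide (Cd14 and Ly96), the adaptor Myd88 and the inhibitory kinase homolog Irak3. They were taken by name out of the 32285 genes counted in each library, and each of the 10 had at least 1 UMI (unique molecular identifier, 1 counted RNA molecule) in every library. Levels (CPM) are the UMIs of the gene, summed over all barcodes of a cell class in 1 library and scaled to a total of 1000000 UMIs. They were computed in the 16261 barcodes, each standing for about 1 cell, that had at least 1000 genes and at most 10% mitochondrial UMIs.

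The study asked how a PyMT-B6 tumor changes hematopoietic progenitors of the bone marrow and the spleen. All mice were C57BL/6J, 8 to 16 weeks old, and 1 single-cell library stood for each of 4 groups: bone marrow of control mice (CBM), bone marrow of tumor-bearing mice (TBM), spleen of control mice (CS) and spleen of tumor-bearing mice (TS). PyMT-B6 is a mouse breast cancer cell line from MMTV-PyMT mice, whose polyoma middle T transgene is switched on chiefly in the mammary gland, and the study's methods describe a subcutaneous injection of the cells. How many mice entered each library was not stated. Spleens were minced and digested with collagenase, while bone marrow was removed by centrifugation and then digested. Organ and this handling thus differ together between the libraries. In all 4 groups the cells were then depleted of lineage-positive cells and sorted into lineage-negative (Lin-) gates, both CD45+ c-Kit+ and CD45-. The sorted cells were mixed at equal ratios before loading. The methods announce 5 populations and list 6 gates. This sort sets which classes a library holds and in what shares, so shares of barcodes per class were not compared.

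Signaling by these receptors runs along a shared line. Tlr2 pairs with Tlr1 or Tlr6 at the cell surface to bind bacterial lipoproteins. Tlr4 binds lipopolysaccharide together with Ly96 (MD-2), to which Cd14 hands over the ligand, while Tlr7 and Tlr9 sense RNA and DNA inside endosomes. All of these receptors recruit Myd88, which assembles the IRAK kinases and leads to activation of NF-kappaB, and Irak3 (IRAK-M) restrains that step. Hematopoietic stem and progenitor cells are known to carry some of these receptors and to turn toward myeloid output when they are engaged.

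Sequencing gave 101811035 UMIs for CBM, 135207987 for TBM, 145301019 for CS and 176094297 for TS. Of the barcodes, 3497, 4340, 3236 and 5188 were kept in that order, with a median of 13738 to 26808 UMIs each, and any 2 libraries shared between 2 and 9 barcode sequences. Barcodes were clustered without the 10 genes and without the other genes of the pathway, and clusters were named from marker lists as HSPC-like (hematopoietic stem and progenitor, 2592 barcodes), granulocyte-monocyte progenitor-like (GMP-like, 1758 barcodes), monocyte-like (1167 barcodes) and 9 other classes. HSPC-like barcodes numbered 827, 919, 152 and 694 in CBM, TBM, CS and TS, GMP-like barcodes 236, 1038, 64 and 420, and monocyte-like barcodes 796, 272, 96 and 3, so that monocyte-like cells could not be compared in TS. Defining stromal and endothelial genes led no cluster that could be named, although the sort included CD45- gates. With 1 library for each group there is no test between groups. Every interval below is an exact 95% interval (Poisson for a level, conditional for a ratio, binomial for a share) and covers counting error only, not the spread between mice.

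Among the 10 genes, 3 stood out by what their levels did between libraries. Tlr2 and Myd88 were higher, together with Cd14, in the monocyte-like cells of TBM than in those of CBM. Of these 272 barcodes of TBM, however, 192 were in a cluster that held 1 barcode of CBM. Cd14 itself was higher in spleen than in marrow. For the first pair, the stretches upstream of the RefSeq start sites are printed here as the RefSeq sequence of GRCm38.p6, written 5′ to 3′ on the gene's own strand, with matches to the searched motifs in capitals. The Tlr2 stretch lies at chr3:83841768-83841858 on the minus strand, 250 to 160 bases before the RefSeq start site. Its capitals mark a C/EBP match (TTNCNNAA) and a palindromic NF-kappaB match (GGGANTTCC), which was found on both strands with the 2 hits overlapping. The Myd88 stretch lies at chr9:119340042-119340268 on the minus strand, 250 to 24 bases before the RefSeq start site, and its capitals mark an interferon regulatory factor match (GAAANNGAA). The GENCODE gene models given below have other start sites, by which the Tlr2 stretch lies directly before the gene and the Myd88 stretch inside it.
Tlr2: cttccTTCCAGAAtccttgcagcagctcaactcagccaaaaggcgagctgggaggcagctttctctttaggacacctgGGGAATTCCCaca
Myd88: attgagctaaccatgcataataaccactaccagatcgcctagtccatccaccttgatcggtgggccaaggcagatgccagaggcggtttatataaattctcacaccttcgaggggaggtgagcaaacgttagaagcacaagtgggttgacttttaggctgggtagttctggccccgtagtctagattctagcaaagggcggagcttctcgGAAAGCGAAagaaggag

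Both strands of the 250 bases before each start site were searched, and 6 of the 10 genes had an entry that was searched (Tlr1, Tlr2, Tlr6, Tlr9, Myd88 and Irak3). The C/EBP letters occurred in Tlr2 and Tlr6 and in 36.8% of all 32817 promoters of this length. The NF-kappaB letters occurred in Tlr2 alone of the 6, and in 1.43% of all promoters, which makes them the rarest of the 5 motifs searched. The interferon regulatory factor letters occurred in Myd88, Irak3 and Tlr6 and in 7.12% of all promoters. The PU.1 letters GAGGAA were present in Tlr1 and Tlr9 (23.3% of all promoters) and the AP-1 letters TGANTCA in Tlr9 (6.75%). A match describes letters in a window, and the files hold no measurement of factor binding.

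In GRCm38 with the GENCODE vM21 annotation, each of the 10 is a protein-coding gene. Tlr1 (chr5:64924679-64933563) and Tlr6 (chr5:64952031-64960097) lie on the minus strand of the same chromosome, 18468 bases apart. Tlr2 lies at chr3:83836272-83841767 (minus), Tlr4 at chr4:66827584-66930284 (plus), Ly96 at chr1:16688051-16709611 (plus), Tlr7 at chrX:167304929-167330558 (minus) and Tlr9 at chr9:106222598-106226883 (plus). Irak3 (chr10:120141648-120202130, minus) overlaps Tmbim4 and Gm47009 on the other strand. Myd88 (chr9:119335934-119341411, minus) overlaps Acaa1a on the other strand and Slc22a14 on its own strand. Reads in the stretch shared with Slc22a14 cannot be assigned to Myd88 by position and strand alone.

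The 10 genes differed in the classes where they were highest. Tlr2 was highest in monocyte-like cells of CBM, TBM and CS and in GMP-like cells of TS, and Cd14 in monocyte-like cells of CBM, neutrophil-like cells of TBM and GMP-like cells of both spleen libraries. Irak3 was highest in basophil-like cells, while Ly96 had a different highest class in each library and Tlr9 was close to 0 everywhere. The heat map of levels shows these patterns side by side. Of the 1280 basophil-like barcodes, 980 were in a cluster named from Cd200r3, Ms4a2 and Fcer1a. The basophil proteases Mcpt8 and Prss34 were not among its top 50 genes. Ms4a2 was also among the leading genes of the mast cell-like cluster, so the name of this class rests on few markers. Because UMIs were counted at the 3′ end and not per length, each gene is compared with itself across cells and not with the other genes.

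**Figure D1:**
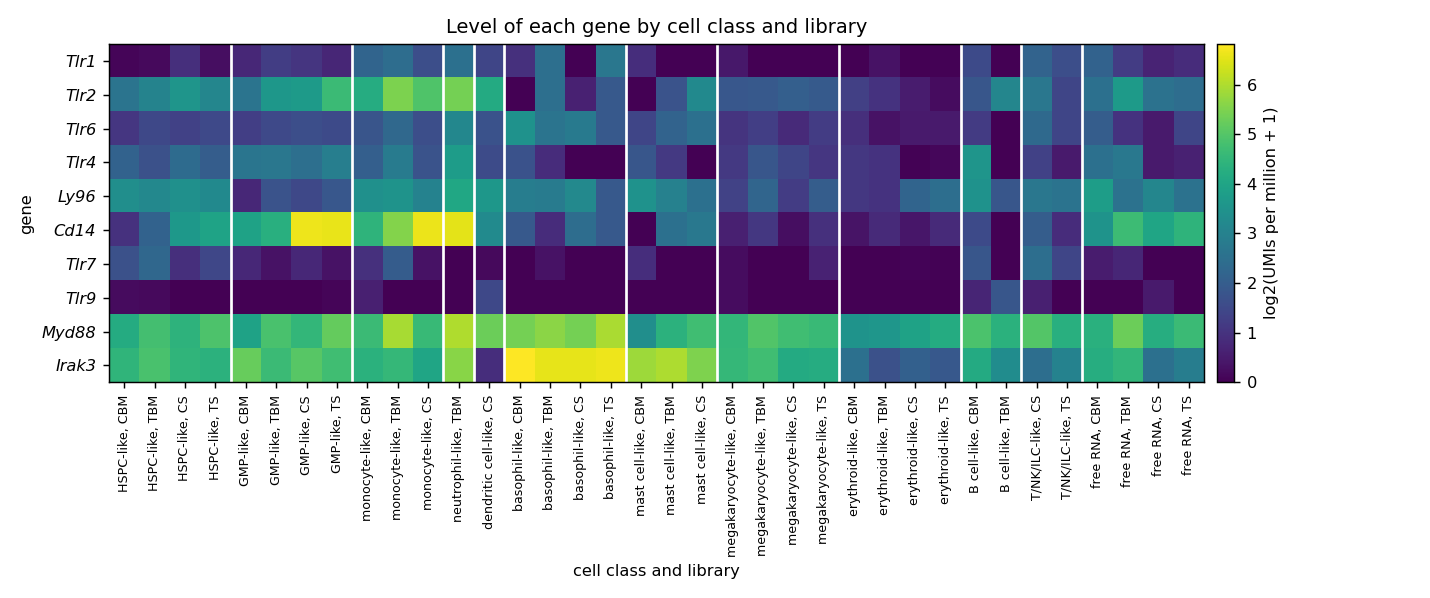
Each cell gives the level of 1 gene as log2(CPM + 1) in 1 cell class of 1 library (classes with at least 50 barcodes) and in free RNA (barcodes with at most 100 UMIs). The Irak3 row is brightest (highest) in basophil-like cells (93.7 to 112 CPM) and the Cd14 row in GMP-like cells of CS and TS (99.8 and 95 CPM) and in monocyte-like cells of CS (96.5 CPM).

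Among genes of the list with more than 3 UMIs in a library, the largest single ratio in HSPC-like and GMP-like cells was that of Cd14 in CS over CBM. It was the largest over all 4 contrasts compared (TS over CS, TBM over CBM, CS over CBM and TS over TBM). The same held in monocyte-like cells over the 2 that leave out TS. Within 1 contrast other genes could be ahead, such as Tlr2 in TBM over CBM of GMP-like cells (1.14). In GMP-like cells the Cd14 level was 14.1 CPM in CBM (80 UMIs), 18.9 in TBM (715 UMIs), 99.8 in CS (282 UMIs) and 95 in TS (1409 UMIs). The spleen libraries were both high and the marrow libraries both low, with no overlap of the counting intervals between the organs. Cd14 rose in CS over CBM by 2.82 on the log2 scale (95% interval 2.46 to 3.20), which is 7.07-fold. It rose in TS over TBM by 2.33 (2.20 to 2.46), which is 5.03-fold. Between tumor-bearing and control mice of the same organ the Cd14 ratio was much smaller, at 0.42 in the marrow (TBM over CBM, 0.08 to 0.77) and -0.07 in the spleen (TS over CS, -0.26 to 0.12).

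The organ difference of Cd14 was also seen within single clusters, an alternative added after the values were seen. In the GMP-like cluster led by Elane and Wfdc21, Cd14 was at 15 and 16.9 CPM in the marrow of control and tumor-bearing mice and at 100.5 and 64.4 CPM in their spleens. Here the spleen over marrow ratio of Cd14 was 2.75 on the log2 scale (2.36 to 3.15) in control mice and 1.93 (1.67 to 2.18) in tumor-bearing mice, while TS over CS was -0.64 (-0.92 to -0.37). The other large GMP-like cluster, for which Cd14 is among the leading genes although it was left out of the clustering, gave 21.2 CPM in TBM and 104 in TS, a log2 ratio of 2.29 (2.12 to 2.46). The organ difference in this cluster was close to that over the whole class.

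The share of barcodes with a Cd14 UMI followed the levels. Of the GMP-like barcodes, 22.0% had one in CBM and 37.0% in TBM, against 84.4% in CS and 81.4% in TS. Since the barcodes differ in depth (medians of 25745, 37128.5, 41981.5 and 34188 UMIs), each was thinned to 2000 UMIs, which gave 2.54% (0.939 to 5.45), 3.47% (2.44 to 4.77), 17.2% (8.90 to 28.7) and 13.1% (10.0 to 16.7). Both spleen shares remained above both marrow shares. In erythroid-like barcodes, which should lack Cd14, the thinned share was at most 0.21%, at a median depth of 14379 to 60553.5 UMIs.

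Monocyte-like cells gave Cd14 levels of 20.5 CPM in CBM (427 UMIs), 45.6 in TBM (355 UMIs) and 96.5 in CS (367 UMIs). The 3 counting intervals did not overlap, with CS highest and CBM lowest. Cd14 rose in CS over CBM by 2.24 on the log2 scale (2.03 to 2.44), or 4.71-fold, and in TBM over CBM by 1.15 (0.95 to 1.36), or 2.23-fold. Within the monocyte-like cluster led by F13a1 and Slpi, Cd14 was at 11.4 CPM in CBM and 101 in CS, a log2 ratio of 3.15 (2.87 to 3.43).

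In HSPC-like cells Cd14 was lower, at 0.98 CPM in CBM (13 UMIs), 3.39 in TBM (50 UMIs), 11.4 in CS (38 UMIs) and 14.6 in TS (159 UMIs). The order of the libraries was the same as in GMP-like cells except for the last 2 places, whose intervals overlapped. The log2 ratio of Cd14 was 3.55 (2.61 to 4.58) for CS over CBM and 2.11 (1.64 to 2.60) for TS over TBM, but the mean level was under 10 CPM in both contrasts, so neither entered the calls described below. Between tumor-bearing and control mice the Cd14 ratio was 1.79 (0.89 to 2.80) in marrow, at a mean under 10 CPM, and 0.35 (-0.17 to 0.90) in spleen. The spleen over marrow ratios moved widely with the processing, from 1.29 to 5.46 for CS over CBM and from 0.33 to 3.73 for TS over TBM over 9 alternatives, being lowest where each barcode took the class with the highest marker score.

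The Cd14 UMIs of HSPC-like cells came from few barcodes. They were found in 12 of 827 barcodes in CBM, 37 of 919 in TBM, 17 of 152 in CS and 74 of 694 in TS. In CS, 14 of the 38 UMIs sat in 1 barcode and 26 in 5 barcodes, while in TS the 5 barcodes with most held 32 of 159 UMIs. HSPC-like barcodes with a Cd14 UMI also held more UMIs of the GMP marker list than those without, at 4342 against 1656 CPM in CBM, 4657 against 2520 in TBM, 4963 against 1650 in CS and 5231 against 1599 in TS. The HSPC marker list was lower in them (894 against 1534 CPM in TS), their median depth was higher (23843.5 against 12994 UMIs in TS), and in CS the macrophage list stood at 465 against 5.83 CPM. Because a deeper barcode is more likely to show any UMI, these values are a description of the barcodes.

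The HSPC-like clusters differed in Cd14. Of the HSPC-like barcodes, 690 in CBM, 685 in TBM and 78 in CS were in the cluster led by Hlf and Adgrl4, while 376 in TS were in the cluster led by Adgrl4 and Cd34. In the first of these, Cd14 was at 1.05 CPM in CBM (10 UMIs) and 18.9 in CS (28 UMIs), a log2 ratio of 4.16 (3.08 to 5.37). The 28 UMIs of CS include the 14 that sat in 1 barcode, a spread that the counting interval does not cover. The macrophage list in this cluster was at 39.5 CPM in CBM and 133 in CS. In the second cluster Cd14 was at 3.76 CPM in TBM (21 UMIs) and 19.7 in TS (152 UMIs), a log2 ratio of 2.38 (1.72 to 3.12). In the HSPC-like cluster led by Dusp2, Cxcl2, Ly6a and Egr1, found almost only in spleen, Cd14 gave 1 UMI in 36 barcodes of CS and 5 UMIs in 279 barcodes of TS (1.80 CPM). Most Cd14 UMIs of TS thus lay in the cluster led by Adgrl4 and Cd34.

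Other measures are given beside the Cd14 difference between the organs. In free RNA, taken from barcodes with at most 100 UMIs, Cd14 was at 10.3 and 24.4 CPM in the marrow libraries (CBM and TBM) and at 15.2 and 20.8 CPM in the spleen libraries (CS and TS), which is above the level in HSPC-like cells and below that in GMP-like cells of the spleen. Cd14 in free RNA was thus higher in CS than in CBM but lower in TS than in TBM. The summed level of 10 early response genes (Fos, Fosb, Jun, Junb, Egr1, Ier2, Dusp1, Zfp36, Atf3 and Nfkbia, a list chosen after values were seen) was higher in spleen too. In GMP-like cells that sum was 878, 889, 2586 and 1941 CPM in CBM, TBM, CS and TS, and in erythroid-like cells, where Cd14 stayed between 0.29 and 0.75 CPM, it was 1058, 801, 2062 and 1795. The erythroid-like cells were not made of the same clusters, since the one led by Hbb-bs and Hba-a1 held 109 of 152 barcodes in CBM and 150 of 193 in TBM, but 65 of 866 in CS and 61 of 2809 in TS. The part of free RNA and of early response in the Cd14 result was not tested.

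**Figure D2:**
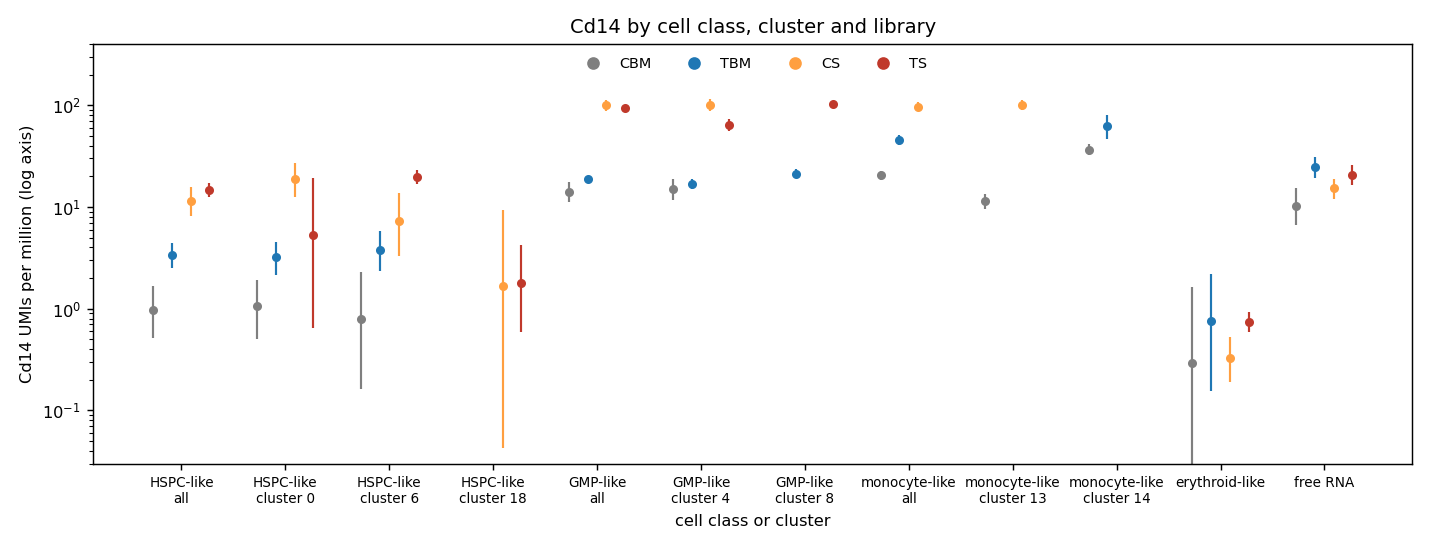
Cd14 level (CPM, log axis) in each library for HSPC-like, GMP-like and monocyte-like cells, chosen single clusters of them, erythroid-like cells and free RNA. Points need at least 30 barcodes, and bars are exact 95% Poisson intervals. The monocyte-like cluster led by Chil3, Fn1 and Lyz2 and the GMP-like cluster led by Elane and Mpo are not drawn singly. GMP-like points of CS and TS (99.8 and 95 CPM) lie above those of CBM and TBM (14.1 and 18.9 CPM), and erythroid-like points lie under 1 CPM.

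Tlr2, the surface receptor shared by the 2 lipoprotein complexes, was higher in tumor-bearing than in control mice over 2 classes. These were GMP-like cells of both organs and monocyte-like cells of the marrow, the only organ where the latter could be compared. The monocyte-like cells of CBM and TBM came mostly from different clusters, as described below. In monocyte-like cells it was at 17.7 CPM in CBM (370 UMIs), 43.6 in TBM (339 UMIs) and 30 in CS (114 UMIs). All 3 intervals were separate and TBM was highest. Tlr2 rose in TBM over CBM by 1.30 on the log2 scale (1.08 to 1.51), or 2.45-fold, while CS over CBM was 0.76 (0.44 to 1.06), short of 2-fold. Within the cluster led by F13a1 and Slpi, however, Tlr2 was higher by 2-fold or more in CS over CBM, as were 0.752% of genes with a mean of at least 10 CPM.

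In GMP-like cells Tlr2 was at 5.12 CPM in CBM (29 UMIs), 11.3 in TBM (427 UMIs), 12.0 in CS (34 UMIs) and 24.2 in TS (359 UMIs). CBM was lowest, TS highest, and TBM and CS in between did not differ beyond their counting intervals. Tlr2 rose in TS over CS by 1.01 (0.50 to 1.56) and in TS over TBM by 1.10 (0.90 to 1.31), while TBM over CBM gave 1.14 (0.60 to 1.73) and CS over CBM 1.23 (0.48 to 2.00) at a mean level under 10 CPM. These ratios depended on how cells were put in the class. TS over CS was 0.45 (-0.28 to 1.22) within the cluster led by Elane and Wfdc21 and 0.26 where each barcode took its highest-scoring class, and TBM over CBM was 0.64 and 0.45 under these settings. TS over TBM was 0.84 in each of the 2 large GMP-like clusters (0.34 to 1.33 and 0.60 to 1.09), short of 2-fold.

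HSPC-like cells held Tlr2 at 5.19 CPM in CBM (69 UMIs), 7.25 in TBM (107 UMIs), 10.8 in CS (36 UMIs) and 7.81 in TS (85 UMIs). The intervals of TBM, CS and TS overlapped one another. The log2 ratio was 0.48 in the marrow (TBM over CBM, 0.03 to 0.94) and -0.47 in the spleen (TS over CS, -1.05 to 0.13), so the 2 tumor contrasts had opposite signs, and the second interval held 0. Tlr2 was detected in 7.62% to 21.1% of HSPC-like barcodes, and in 1.01% to 2.63% after thinning to 2000 UMIs, against 0.53% to 3.29% and at most 0.52% in erythroid-like barcodes. Elsewhere Tlr2 reached 41.2 CPM in the neutrophil-like cells of TBM (53 barcodes) and 16.9 CPM in the dendritic cell-like cells of CS (140 UMIs), and stayed between 0.16 and 1.46 CPM in erythroid-like cells.

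The partners of Tlr2 gave few UMIs in HSPC-like cells. Tlr1 was at 3.60 CPM in monocyte-like cells of CBM (75 UMIs), 4.37 in TBM (34 UMIs) and 2.10 in CS (8 UMIs). In HSPC-like cells it gave only 1, 2, 3 and 2 UMIs in CBM, TBM, CS and TS, at or under the 3 counts taken as the floor, and so no ratio is given. GMP-like cells lay between these classes, at 0.71, 1.37, 1.06 and 0.67 CPM.

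Tlr6 was spread more evenly, with 1.13 to 1.84 CPM in HSPC-like cells, 1.41 to 2.12 CPM in GMP-like cells and 2.10 to 3.98 CPM in monocyte-like cells over the libraries. Its highest level was in the basophil-like cells of CBM, at 10.1 CPM (22 UMIs). Basophil-like cells of TBM held 5.12 CPM (19 UMIs), those of CS 6.06 (11 UMIs) and those of TS 2.75 (1 UMI). The Tlr6 ratio in HSPC-like cells was 0.64 on the log2 scale for TBM over CBM (-0.33 to 1.67), from 26 and 15 UMIs. At these counts a difference of that size was not detectable.

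Tlr4, the lipopolysaccharide receptor, was nearly flat across libraries in GMP-like cells, at 5.30 CPM in CBM (30 UMIs), 5.46 in TBM (207 UMIs), 4.6 in CS (13 UMIs) and 6.61 in TS (98 UMIs). All 4 intervals overlapped. In HSPC-like cells Tlr4 was at 3.46 CPM (46 UMIs), 2.24 (33 UMIs), 4.21 (14 UMIs) and 3.03 (33 UMIs) in the same order, again with overlapping intervals. In monocyte-like cells it was at 3.21 CPM in CBM (67 UMIs), 6.17 in TBM (48 UMIs) and 2.37 in CS (9 UMIs). The TBM over CBM ratio of 0.94 (0.37 to 1.5) did not hold within a single cluster, where it was -1.14 (-4.24 to 0.81) from 2 and 36 UMIs.

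Tlr4 was also present in B cell-like cells of CBM, at 10.7 CPM (17 UMIs in 248 barcodes), while those of TBM gave no UMI in 171 barcodes. With TBM set to the floor of 3 counts the level was 2.79-fold lower there, a value that leaves out the counting error of the 17 UMIs. Free RNA held Tlr4 at 4.73 CPM in CBM and 5.62 in TBM but at 0.39 in CS and 0.55 in TS, and erythroid-like cells at 1.17, 1.00, 0.02 and 0.08 CPM. Those erythroid-like cells came from different clusters in marrow and spleen, with a summed erythroid marker level of 143929, 147201, 12223 and 6263 CPM in CBM, TBM, CS and TS.

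Ly96, which binds lipopolysaccharide at the outer face of Tlr4, had a steady level in HSPC-like cells. It was at 9.40 CPM in CBM (125 UMIs), 8.00 in TBM (118 UMIs), 9.63 in CS (32 UMIs) and 8.36 in TS (91 UMIs), with overlapping intervals. GMP-like cells held less in every library, at 0.71 CPM (4 UMIs), 2.38 (90 UMIs), 1.77 (5 UMIs) and 2.63 (39 UMIs). In each library the interval for GMP-like cells lay below that for HSPC-like cells. Monocyte-like cells returned to 9.64 CPM in CBM (201 UMIs), 10.3 in TBM (80 UMIs) and 7.10 in CS (27 UMIs), and dendritic cell-like cells of CS stood at 11.2 (93 UMIs). The highest levels of CBM and TBM rested on few UMIs, at 10.2 CPM in mast cell-like cells of CBM (12 UMIs) and 15.9 CPM in neutrophil-like cells of TBM (10 UMIs).

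The genes of the lipopolysaccharide complex thus did not share 1 pattern. Over the 32 combinations of class and library with at least 50 barcodes, Pearson's r between log2(CPM + 1) values was 0.61 for Tlr4 with Cd14 and 0.27 for Tlr4 with Ly96, and the points share libraries, depth and free RNA. Single barcodes rarely showed both genes of a pair. After thinning to 2000 UMIs, 2 of the 8 GMP-like barcodes of TS with Tlr4 also had Cd14 (13.1% of all barcodes had it), and 1 of the 55 with Cd14 also had Ly96 (0.71% of all). These counts are too low to tell joint detection from chance overlap.

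**Figure D3:**
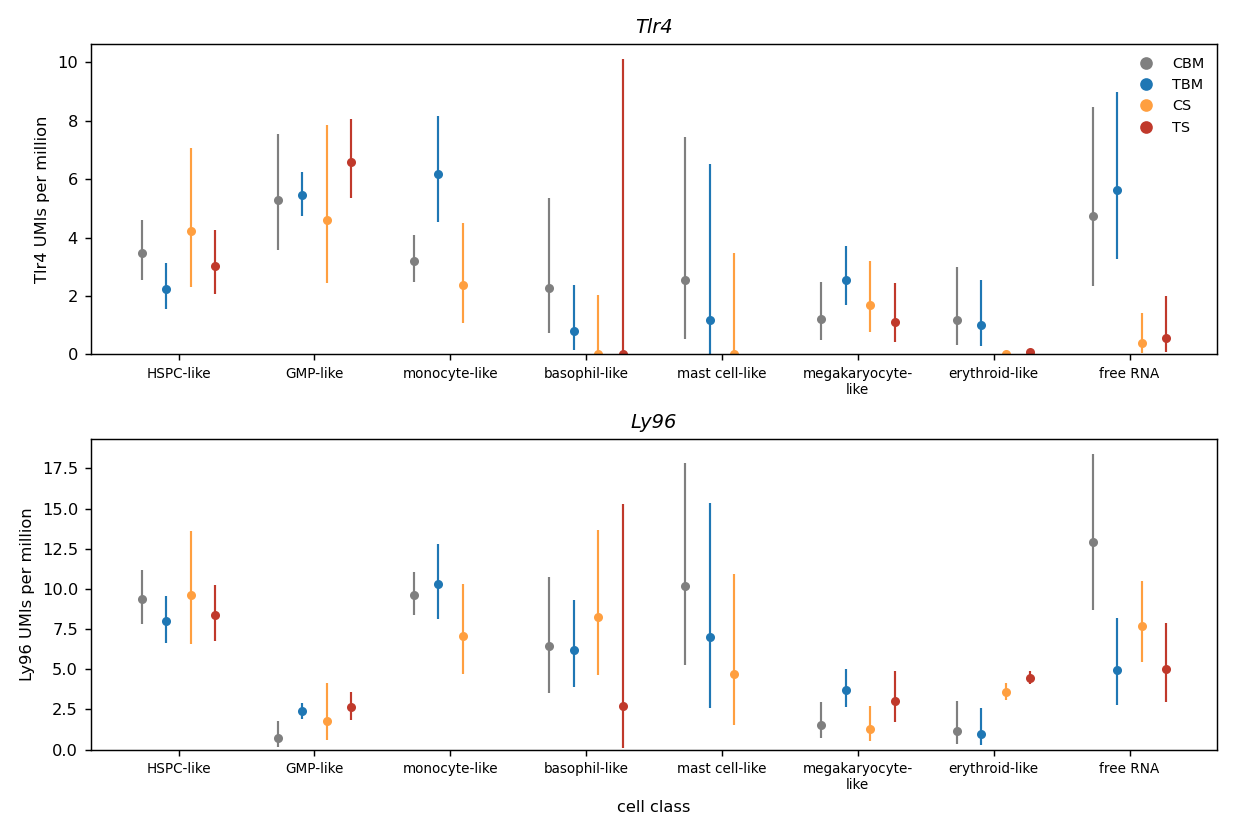
Levels (CPM, linear axes from 0) of Tlr4 and Ly96 by cell class and library and in free RNA, with exact 95% Poisson intervals. The classes are HSPC-like, GMP-like, monocyte-like, basophil-like, mast cell-like, megakaryocyte-like and erythroid-like cells. Ly96 is at 8.00 to 9.63 CPM in HSPC-like cells and at 0.71 to 2.63 CPM in GMP-like cells. Tlr4 stays between 2.24 and 6.61 CPM in HSPC-like, GMP-like and monocyte-like cells.

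The endosomal receptors were near the limit of detection. Tlr7 was found in HSPC-like cells at 2.26 CPM in CBM (30 UMIs), 3.86 in TBM (57 UMIs), 0.90 in CS (3 UMIs) and 1.75 in TS (19 UMIs). Marrow was above spleen in tumor-bearing mice, with a log2 ratio of -1.15 (-1.98 to -0.38) for TS over TBM, and TBM over CBM was 0.78 (0.11 to 1.46). GMP-like cells held less Tlr7, between 0.26 and 0.71 CPM (2 to 10 UMIs), and monocyte-like cells gave 0.91 CPM in CBM (19 UMIs), 2.96 in TBM (23 UMIs) and 0.26 in CS (1 UMI). The monocyte-like ratio of TBM over CBM was 1.70 (0.76 to 2.65). Free RNA held 1, 2, 0 and 0 Tlr7 UMIs in CBM, TBM, CS and TS.

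Over all kept barcodes, Tlr9 gave 16 UMIs each in CBM and CS, 5 in TBM and 1 in TS. Of these, 11 in CBM were in monocyte-like cells and 15 in CS were in dendritic cell-like cells (1.81 CPM). HSPC-like cells held 2 in CBM, 2 in TBM and none in CS or TS, where a count of 0 allows up to 0.903 CPM in CS and 0.276 in TS. No ratio of Tlr9 is given for HSPC-like cells.

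Myd88, the adaptor that the receptors share, was detected in every class. In monocyte-like cells it was at 24.1 CPM in CBM (503 UMIs), 60.1 in TBM (468 UMIs) and 23.1 in CS (88 UMIs). TBM stood alone above the other 2, which did not differ beyond counting error. Myd88 rose in TBM over CBM by 1.32 on the log2 scale (1.13 to 1.5), or 2.49-fold.

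In GMP-like cells Myd88 was at 14.3 CPM in CBM (81 UMIs), 27.8 in TBM (1053 UMIs), 21.9 in CS (62 UMIs) and 36.1 in TS (536 UMIs). The tumor-bearing library was higher in both organs, by 0.96 in the marrow (0.63 to 1.30) and by 0.72 in the spleen (0.34 to 1.12) on the log2 scale, both short of 2-fold. The GMP-like cells were not made of the same clusters, since the cluster led by Ms4a3 and Prtn3 held 15 of 236 barcodes in CBM and 413 of 1038 in TBM, and 11 of 64 in CS and 314 of 420 in TS. Within the cluster led by Elane and Wfdc21 the Myd88 ratio was 0.72 (0.35 to 1.11) in the marrow and 0.88 (0.38 to 1.40) in the spleen. HSPC-like cells showed the same order at smaller size, with 17.1 CPM (228 UMIs), 26.3 (388 UMIs), 20.2 (67 UMIs) and 29.0 (316 UMIs). There the Myd88 ratio was 0.62 (0.38 to 0.86) in marrow and 0.53 (0.14 to 0.93) in spleen. Over 9 alternatives these 2 ratios stayed between 0.56 and 0.66 and between 0.50 and 0.67. The HSPC-like cells of CS and TS were not made of the same clusters either. The cluster led by Hlf and Adgrl4 held 78 of 152 barcodes in CS and 39 of 694 in TS. No HSPC-like cluster had 50 barcodes in both, so the spleen ratio was not compared within a cluster.

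The share of HSPC-like barcodes with a Myd88 UMI, after thinning to 2000 UMIs, was 3.63% in CBM (2.46 to 5.14), 5.77% in TBM (4.35 to 7.48), 4.61% in CS (1.87 to 9.26) and 5.48% in TS (3.90 to 7.44). These intervals overlapped, so at this depth the shares did not separate the libraries. Basophil-like cells held Myd88 at 40.8, 48.2, 41.3 and 60.4 CPM, and erythroid-like cells at 10.2, 11, 14.1 and 17.4. Mast cell-like cells gave 9.36 CPM in CBM (11 UMIs), 19.9 in TBM (17 UMIs) and 25.3 in CS (27 UMIs). The log2 ratio was 1.09 (-0.09 to 2.33) for TBM over CBM and 1.44 for CS over CBM. Both were past 2-fold, where 2.62% and 4.96% of all genes with a mean of at least 10 CPM were higher. Free RNA was at 18.9, 38.0, 18.2 and 23.8 CPM and so was higher in the tumor-bearing library of each organ as well. Its part in the Myd88 result was not tested.

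The monocyte-like cells of CBM and TBM were not made of the same clusters, which bears on the rise of Cd14, Tlr2 and Myd88 together. Of the 272 monocyte-like barcodes of TBM, 192 were in a cluster led by Chil3, Fn1 and Lyz2 that held 1 barcode of CBM, while those of CBM were in the clusters led by F13a1 and Slpi (398) and by Lyz2 and Fn1 (397). The summed neutrophil marker list was at 3862 CPM in monocyte-like cells of TBM against 95.4 in CBM and 45.2 in CS, with 9 of its 10 genes detected in TBM and Ly6g at 0. Within the cluster led by Lyz2 and Fn1, which had 397 barcodes of CBM and 54 of TBM, the neutrophil list was at 202 and 336 CPM. There Myd88 went from 39.6 to 65.3 CPM, a log2 ratio of 0.72 (0.29 to 1.13), Tlr2 from 30.6 to 52.0, 0.77 (0.28 to 1.22), and Cd14 from 36.6 to 62.0, 0.76 (0.32 to 1.18). All 3 ratios kept their sign in that cluster and were smaller than over the class, short of 2-fold.

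Irak3, the inhibitor, was highest in basophil-like cells in every library. Basophil-like cells held 112 CPM in CBM (244 UMIs), 94.0 in TBM (349 UMIs), 93.7 in CS (170 UMIs) and 98.8 in TS (36 UMIs). The intervals of all 4 libraries overlapped in this class, and the log2 ratio of TBM over CBM was -0.25 (-0.49 to -0.01). The basophil-like cluster led by Prss34 and Mcpt8 held 44 of 456 barcodes in CBM, 230 of 458 in TBM, 5 of 300 in CS and 21 of 66 in TS, and within the other one, led by Ccl6 and Ccl3, the Irak3 ratio of TBM over CBM was -0.47 (-0.82 to -0.13). It was 0.029 over the class with a minimum of 2000 genes per barcode. Mast cell-like cells followed at 55.3, 62.2, 44.1 and 49.2 CPM, the last from 34 barcodes, and the 15 eosinophil-like barcodes of TBM gave 82.1 CPM (28 UMIs). After thinning to 2000 UMIs, Irak3 was seen in 16.3% to 20.3% of basophil-like barcodes against at most 1.04% of erythroid-like ones. Dendritic cell-like cells of CS stood at the other end, with 0.84 CPM (7 UMIs).

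In the progenitors Irak3 was at 36.5 CPM in GMP-like cells of CBM (207 UMIs), 24.2 in TBM (917 UMIs), 32.2 in CS (91 UMIs) and 25.5 in TS (378 UMIs). Here the control libraries were the higher ones, opposite to Myd88. The log2 ratio of Irak3 was -0.59 in the marrow (TBM over CBM, -0.81 to -0.37) and -0.34 in the spleen (-0.67 to 0.01). Within the cluster led by Elane and Wfdc21 these were -0.50 (-0.75 to -0.25) and -0.44 (-0.90 to 0.02), and with each barcode in its highest-scoring class the marrow ratio was -0.13. HSPC-like cells held 21.1 CPM in CBM (281 UMIs), 28.0 in TBM (413 UMIs), 21.1 in CS (70 UMIs) and 19.8 in TS (216 UMIs). TBM was highest in this class, with 0.41 (0.18 to 0.63) over CBM and a ratio of TS over TBM of -0.50 (-0.74 to -0.26). The direction of the marrow contrast for Irak3 therefore differed between HSPC-like and GMP-like cells, and neither reached 2-fold.

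**Figure D4:**
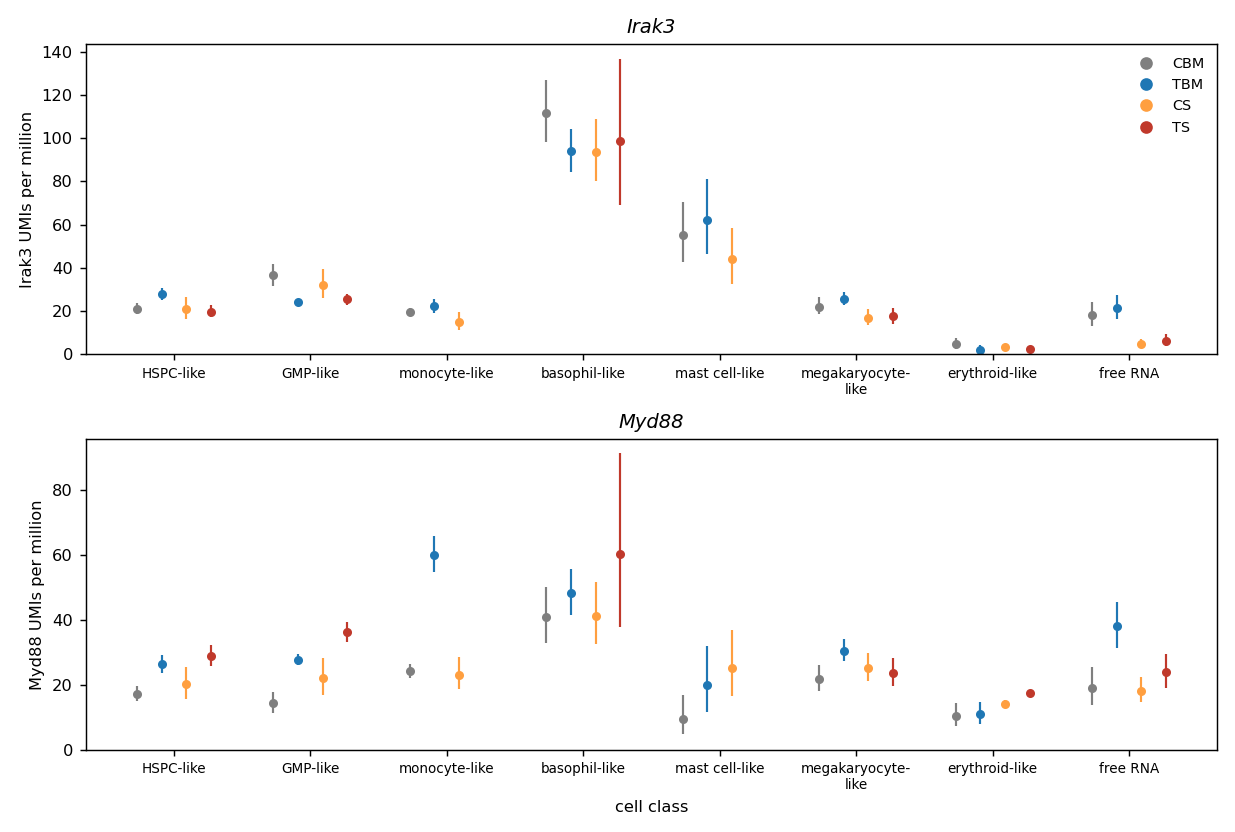
Levels (CPM, linear axes from 0) of Irak3 and Myd88 by cell class and library, with exact 95% Poisson intervals. Irak3 is highest in basophil-like cells (93.7 to 112 CPM), and Myd88 in monocyte-like cells is at 60.1 CPM in TBM against 24.1 in CBM and 23.1 in CS.

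The genes were then counted against all others in each contrast. A gene was counted as higher or lower when it differed by 2-fold or more between 2 libraries and had a mean of at least 10 CPM in them. In HSPC-like cells few of the 10 genes reached that level (3 in TS over CS and 2 in each other contrast) and none was called over the class. Of all genes, 0.493% were higher and 0.95% lower in TS over CS, 0.49% and 0.322% in TBM over CBM, 0.909% and 0.201% in CS over CBM, and 0.509% and 0.449% in TS over TBM. With so few genes entered and shares this small, a count of 0 says little about the 10 genes. Within the cluster led by Adgrl4 and Cd34, Cd14 was called higher among 3 in TS over TBM, where 0.556% of all genes were higher and 0.506% lower. None was called there in TBM over CBM, nor in the cluster led by Hlf and Adgrl4 in TBM over CBM or CS over CBM.

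In GMP-like cells Tlr2 was called higher in TS over CS (1 of 4 entered), where 0.804% of all genes were higher and 1.46% lower. None of 3 was called in TBM over CBM (0.916% and 0.519%), Cd14 was called higher among 3 in CS over CBM (1.04% and 0.054%), and Tlr2 and Cd14 among 4 in TS over TBM (0.436% and 0.341%), of which Cd14 alone was called within each of the 2 large clusters. In monocyte-like cells Tlr2, Cd14 and Myd88 were called higher among 4 in TBM over CBM, where 2.05% of all genes were higher and 1.25% lower, but none of the 10 genes was called within the cluster led by Lyz2 and Fn1. Cd14 was called higher among 4 in CS over CBM (0.698% and 0.569%), and within the cluster led by F13a1 and Slpi both Tlr2 and Cd14 were called higher among 4 (0.752% and 0.0528%). None of the 10 genes was called lower in these classes. The contrasts share libraries, so the calls in them are not independent of one another.

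Taken as a list in HSPC-like cells, the 8 genes with more than 3 UMIs in a library had a median log2 ratio of 0.10 for TS over CS. Of the 8, 4 were above 0. The median over the 8316 genes with a mean of at least 10 CPM was -0.02, and 47.3% of them were above 0. Only 3 of the 10 genes reached that mean in this contrast and 2 in each other one, so the list holds mostly genes of lower level. For TBM over CBM the list median was 0.55, with 6 of 8 above 0 and 5 intervals wholly above 0, beside 0.00 over 8374 genes, of which 50.1% were above 0. For CS over CBM it was 0.26 beside 0.03, and for TS over TBM 0.09 beside 0.01. In TBM over CBM the 2 genes below 0 were Tlr4 at -0.63 and Ly96 at -0.23. In GMP-like cells the list median, over 9 genes, was -0.07 for TS over CS (4 of 9 above 0), 0.42 for TBM over CBM (7 of 9), 0.59 for CS over CBM (7 of 9) and 0.15 for TS over TBM (8 of 9). Over the genes with a mean of at least 10 CPM the medians were 0.05, 0.08, 0.10 and 0.09, and 55.5%, 60.2%, 68.1% and 67.9% of them were above 0. In monocyte-like cells 9 of 10 genes were above 0 for TBM over CBM, 5 of them with intervals wholly above 0, and the list median was 0.81 beside 0.06 over 7669 genes, of which 57.5% were above 0. Tlr9, at 0 in TBM and set there to its bound, was the gene below 0. For CS over CBM only Tlr2 and Cd14 were above 0 in monocyte-like cells, 7 were below, and Tlr9, at 0 in CS against 11 UMIs in CBM, could not be placed. Of the 7731 genes with a mean of at least 10 CPM there, 56.2% were above 0. The plot of ratios shows the genes singly.

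**Figure D5:**
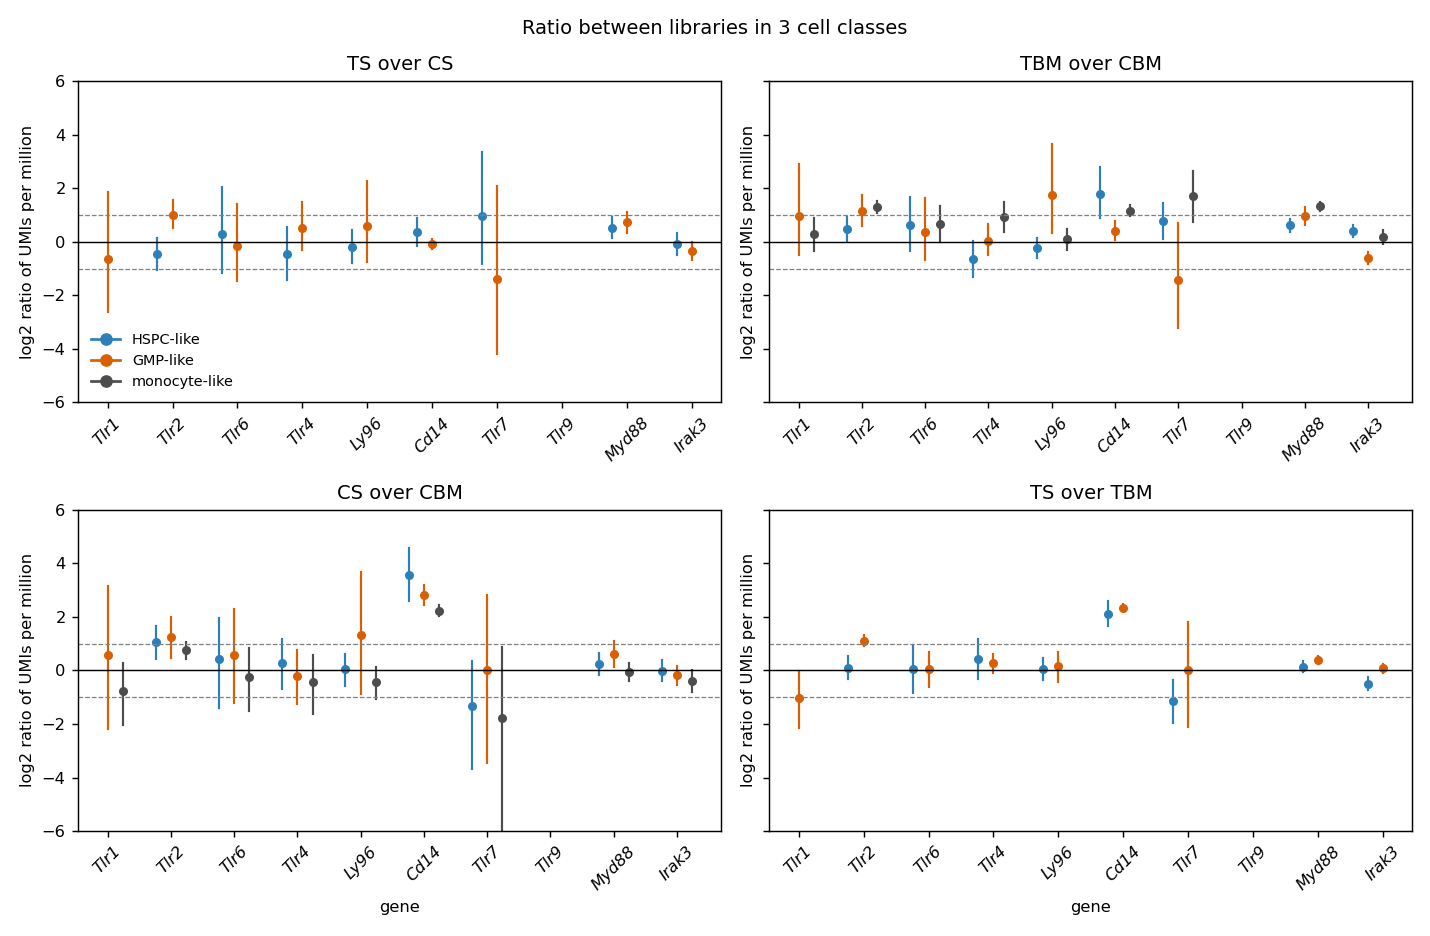
Log2 ratio of each gene between 2 libraries with its exact 95% interval, for 4 contrasts in HSPC-like, GMP-like and monocyte-like cells; dashed lines mark 2-fold, 1 interval is cut at -6, and genes at 0 or without more than 3 UMIs in a library are not drawn. Cd14 lies beyond 2-fold in GMP-like cells in both spleen over marrow contrasts (2.82 and 2.33) and near 0 in TS over CS (-0.07).

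The rest of the pathway was taken as 39 genes, from the other receptors to kinases, interferon regulatory factors and inhibitors. Of these, 22 to 24 reached 10 CPM in HSPC-like cells, 19 to 22 in GMP-like cells and 24 in monocyte-like cells, and their median log2 ratio lay between -0.09 and 0.08 in every contrast of these 3 classes. Of the 4 inhibitors, Tnfaip3 (A20, which removes ubiquitin chains from NF-kappaB signaling proteins) rose in spleen. In HSPC-like cells it was at 14.6 and 15.7 CPM in CBM and TBM and at 39.4 and 38.2 CPM in CS and TS, 2.70-fold higher in CS over CBM and 2.44-fold in TS over TBM. In GMP-like cells Tnfaip3 had levels of 3.53, 1.85, 14.5 and 11 CPM, a mean below 10 in both contrasts, and in monocyte-like cells it rose in CS over CBM from 6.52 to 18.9 CPM.

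The early response sum moved in the same direction in HSPC-like cells (3769, 3948, 7257 and 6000 CPM in CBM, TBM, CS and TS), and its part in the level of Tnfaip3 was not tested. Tnfaip3 also rose in spleen in megakaryocyte-like cells, 2.09-fold in CS over CBM and 2.91-fold in TS over TBM. Cd14 held 1 to 12 UMIs a library there, too few for a comparison.

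Among the 8 other receptors, Ly86 (MD-1, the partner of Cd180) rose in GMP-like cells of TBM from 19.6 to 60.3 CPM and fell in HSPC-like cells of TS against CS from 16.9 to 6.34. The macrophage marker list summed to 62.0 CPM in HSPC-like cells of CS and 7.53 in those of TS, and 78 of 152 barcodes in CS but 39 of 694 in TS were in the cluster led by Hlf and Adgrl4; the part of either in the Ly86 fall was not tested. The Ly86 rise was not seen within the GMP-like cluster led by Elane and Wfdc21, where it was at 12.9 CPM in CBM and 9.05 in TBM, a log2 ratio of -0.51 (-0.94 to -0.07). Tlr13, an endosomal sensor of bacterial ribosomal RNA, rose in monocyte-like cells of TBM from 6.72 to 18.9 CPM, but within the cluster led by Lyz2 and Fn1 it was at 18.6 CPM in CBM and 15.5 in TBM, a log2 ratio of -0.27 (-1.17 to 0.53). No other of the 39 genes was called in these 3 classes. The chaperone Unc93b1, which carries the endosomal receptors out of the endoplasmic reticulum, lay at 43.4 to 53.2 CPM in HSPC-like cells and 191 to 228 in monocyte-like cells, and the kinase Irak1 at 104 to 130 CPM in HSPC-like and 92.2 to 100.2 in GMP-like cells. Irak4, the kinase that Myd88 binds first, was at 23.2 to 26.9 CPM in HSPC-like cells and at 24.9, 31.6 and 26.3 in monocyte-like cells of CBM, TBM and CS.

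Finally, the genes with the most similar pattern were named for each member, by Pearson's r of log2(CPM + 1) over the same 32 combinations of class and library, among 8378 genes with a mean of at least 10 CPM. For Irak3 these were Cd63 (r = 0.93), Itm2b (0.88) and Bnip3 (0.88). For Tlr2 they were Csf2ra, a subunit of the GM-CSF receptor (0.86), App (0.84) and Tnfrsf1a, a TNF receptor (0.83), and for Cd14 they were Mtus1 (0.85), Agps (0.83) and App (0.82). Tlr2 and Cd14 were themselves the pair with the highest r among the 10 genes, at 0.79. Myd88 was closest to Actr2 (0.82), Snapc5 (0.82) and Cdc42 (0.81), Tlr6 to Arhgap9 (0.91), Ccdc88b (0.87) and Fcer1g (0.87), and Ly96 to Il10rb (0.79), Slc25a45 (0.77) and Arhgap30 (0.71). Tlr6 (mean of 2.49 CPM) and the remaining genes rest on few UMIs. Tlr1 was closest to Cfp (0.77), Gnai2 (0.76) and Cd300lf (0.76), and Tlr4 to Lmo1 (0.77), Tmem170b (0.75) and Pxylp1 (0.74). Tlr7 was closest to Calcrl (0.72), Fam110a (0.68) and Camk2d (0.67), and Tlr9 to Slamf7 (0.86), Fcrla (0.84) and Cyb561a3 (0.80). The points share libraries, depth and free RNA, and r is given as a description of them.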

How the data were processed

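The authors deposited unfiltered UMI counts per gene and barcode for 4 libraries of 10x Genomics 3′ v3.1 chemistry. Per the submitters' processing notes these were made with Cell Ranger 4.0 on mm10. The study's later steps (SoupX at a contamination fraction of 10% and a minimum of 350 genes) are not in the deposited counts, in which all barcodes remain. Groups came from the sample labels, 1 library each. The 10 genes and all lists were chosen with earlier results of these data known.

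Barcodes with at least 1000 genes and at most 10% mitochondrial UMIs were kept, 2286 barcodes being left out for mitochondrial UMIs. Pearson residuals (theta 100) of 17553 genes, without the 10 genes and the 39 pathway genes, were reduced to 50 principal components. Leiden clustering (20 neighbors, resolution 1.2, leidenalg 0.10.2) gave 37 clusters. A cluster took the name of a class when at least 3 of its markers were among its top 50 genes by fold, unless another class had as many or more markers among the top 10. These rebuilt names may differ from the study's. Doublets were not removed. A class was compared where it had at least 50 barcodes in both libraries. A ratio was given where a library had more than 3 UMIs, and a gene at 0 was set to 3 counts, as a bound. Shares were computed after thinning each barcode to 2000 UMIs. Free RNA is the sum of barcodes with at most 100 UMIs. The 10x 3′ protocol marks strand.

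The libraries held 101811035 to 176094297 UMIs, 58.1% to 79.4% of them in kept barcodes, which sets the counting intervals given. There was no test across libraries. The genes named are the 10 members, the pathway list and, for each member, the 3 genes most alike in pattern. Marker genes and early response genes are given where they moved with a result. Alternatives were 2 other clustering resolutions, classes by marker score, clustering with the pathway genes kept, stricter barcode filters, leaving out the 5% of barcodes with most UMIs, removal of 10% free RNA, another scaling, and thinning to 5000 UMIs or none. The ratio and its interval were run on Poisson counts simulated with known ratios, while clustering, class names and thinning were not simulated. Python 3.11.15, numpy 2.4.6, scipy 1.17.1 and pandas 2.3.3 were used.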

Additional observations from a re-analysis of the deposited data

How the results depend on the processing

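Of 1640 ratios recomputed under 9 alternatives, 1606 stayed within their counting interval and the others left it. A change of sign was seen in 93, of which 30 were with classes by marker score, and in 3 of the 93 the counting interval lay wholly on the other side of 0. The 3 were Tlr2 in basophil-like cells, TBM over CBM, at -0.54 with a minimum of 2000 genes, Irak3 in the same cells and contrast at 0.029 with that minimum, and Ly96 in GMP-like cells, TBM over CBM, at -0.15 with classes by marker score. For the first of these, CBM had 0 Tlr2 UMIs and was set to 3 counts, so the main ratio and the -0.54 are both bounds and the change of sign is not a measured one. Within single clusters, alternatives added after seeing the data, Tlr4 in monocyte-like cells, TBM over CBM, was at -1.14. The cause was not tested. Of 320 shares of barcodes with a UMI, 111 left their interval with thinning to 5000 UMIs and 184 with no thinning, both of which leave more UMIs in a barcode. The list medians in HSPC-like cells ranged from -0.05 to 0.35 (TS over CS, below 0 at resolution 2 only), 0.49 to 0.60 (TBM over CBM), 0.02 to 0.37 (CS over CBM) and 0.03 to 0.16 (TS over TBM). Without the cluster led by Dusp2, Cxcl2, Ly6a and Egr1 these medians were 0.12, 0.56, 0.26 and 0.05. With classes by marker score, 3 calls in TBM over CBM of monocyte-like cells became log2 ratios of 0.64 (Cd14), 0.90 (Tlr2) and 1.01 (Myd88). Cd14 in GMP-like cells kept 2.73 to 3.09 for CS over CBM and 2.25 to 2.50 for TS over TBM. The class with the highest level was the same in 25 of 34 combinations of gene and library. With 1 library a group, the spread between mice cannot be estimated, and genes under 10 CPM were limited by depth. No paired analysis was possible because each group has 1 library and the result comes from no test.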
